A study of Litchi chinensis with 30 samples.

Results

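The 7 genes described here had lower transcript levels in functionally female than in functionally male litchi flowers at every one of 5 developmental stages. They were chosen by their measured sex difference, as a list drawn from the entries that were lower in female flowers at all 5 stages, leaving out the circadian clock and seed maturation groups. With a 2-fold difference and an FDR (false discovery rate) of 0.01 as limits, 18 entries were lower at all 5 stages, and the 7 are among them. Those exclusions do not account for all of the other 11, several of which belong to neither group by annotation. The table holds 37234 entries, and all 7 genes were among the 27854 that passed a filter on low counts. By their annotation they are the oxygenase DLO2 (LITCHI021773.m1.gene), the raffinose synthase RFS5 (LITCHI020575.m1.gene), the plant cysteine oxidase PCO1 (LITCHI003402.m1.gene), the autophagy kinase ATG1A (LITCHI026769.m1.gene), the helix-loop-helix factor PRE6 (LITCHI005146.m1.gene), the protein phosphatase PP2C8 (LITCHI009626.m1.gene) and LITCHI019894.m1.gene, which has no Swiss-Prot or Pfam match. Because the sex difference chose them, it is given below as a description with no test, and the tests concern changes between stages within each sex.

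Litchi bears flowers of both sexes on one inflorescence, with rudimentary stamens in functionally female flowers and rudimentary pistils in functionally male ones. By their annotation the 7 genes belong to different processes. Their relatives in Arabidopsis or rice act in salicylic acid turnover, raffinose synthesis, oxygen sensing, autophagy, cell elongation and hormone signalling. ATG1A and LITCHI019894 carry identifier numbers next to those of LHY and LNK3, which in Arabidopsis belong to the morning part of the circadian clock, the oscillator that sets daily rhythms of transcription.

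RNA was sequenced from whole flowers of the cultivar 'Feizixiao', grown in an orchard, and the labels name no treatment. Female flowers (F1 to F5) and male flowers (M1 to M5) were taken at stages 1 to 5, with 3 libraries in each of the 10 groups. Stages 1 to 3 were buds of increasing size, stage 4 was partly open flowers and stage 5 was full bloom. The study's methods give the morning as the sampling time of plant material. They give no collection dates. The study says that litchi flowers generally open in the order male, female, male. Sex and collection date may therefore be mixed and cannot be told apart here. The methods describe triplicate sampling from differently facing parts of the tree, and neither they nor the labels say that replicates came from separate trees, so the p-values measure the spread between these libraries, which may be technical. Whole flowers mix stamens, pistils and sepals, so fewer cells of a type and less RNA per cell cannot be told apart. Total counts per library ranged between 27433000 and 43760300. Levels are given as FPKM, fragments scaled by transcript length and by the mapped fragments of the library.

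At each stage all 7 genes were past both thresholds, as the rule requires, and the highest female library lay below the lowest male library for all 7. Among all tested entries, 0.923% were called lower in F1 than in M1, 0.341% in F2, 0.413% in F3, 7.4% in F4 and 11.6% in F5. Only 18 entries, or 0.0646%, were called lower at all 5 stages, and 3 entries, or 0.0108%, were called higher at all 5. Non-overlap alone was common, since every female library lay below every male library for 18.9%, 11.3%, 19%, 29.5% and 30.6% of entries at stages 1 to 5. On the TMM-scaled log2 scale the difference was widest at stage 4 for RFS5, at stage 5 for DLO2, PCO1, ATG1A, PRE6 and PP2C8, and at stage 1 for LITCHI019894. The order depends on the scale for PCO1, whose female mean FPKM was 34.6% of the male mean at stage 4 and 35.2% at stage 5. For ATG1A stage 5 was widest on both scales, although in FPKM stages 1 and 5 were close, at 32.6% and 32.1%. Not every setting kept all 7 past the thresholds: at stage 4 ATG1A and PP2C8 were under 2-fold in mean FPKM, with female means at 54.5% and 53.0% of the male means.

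**Figure D1:**
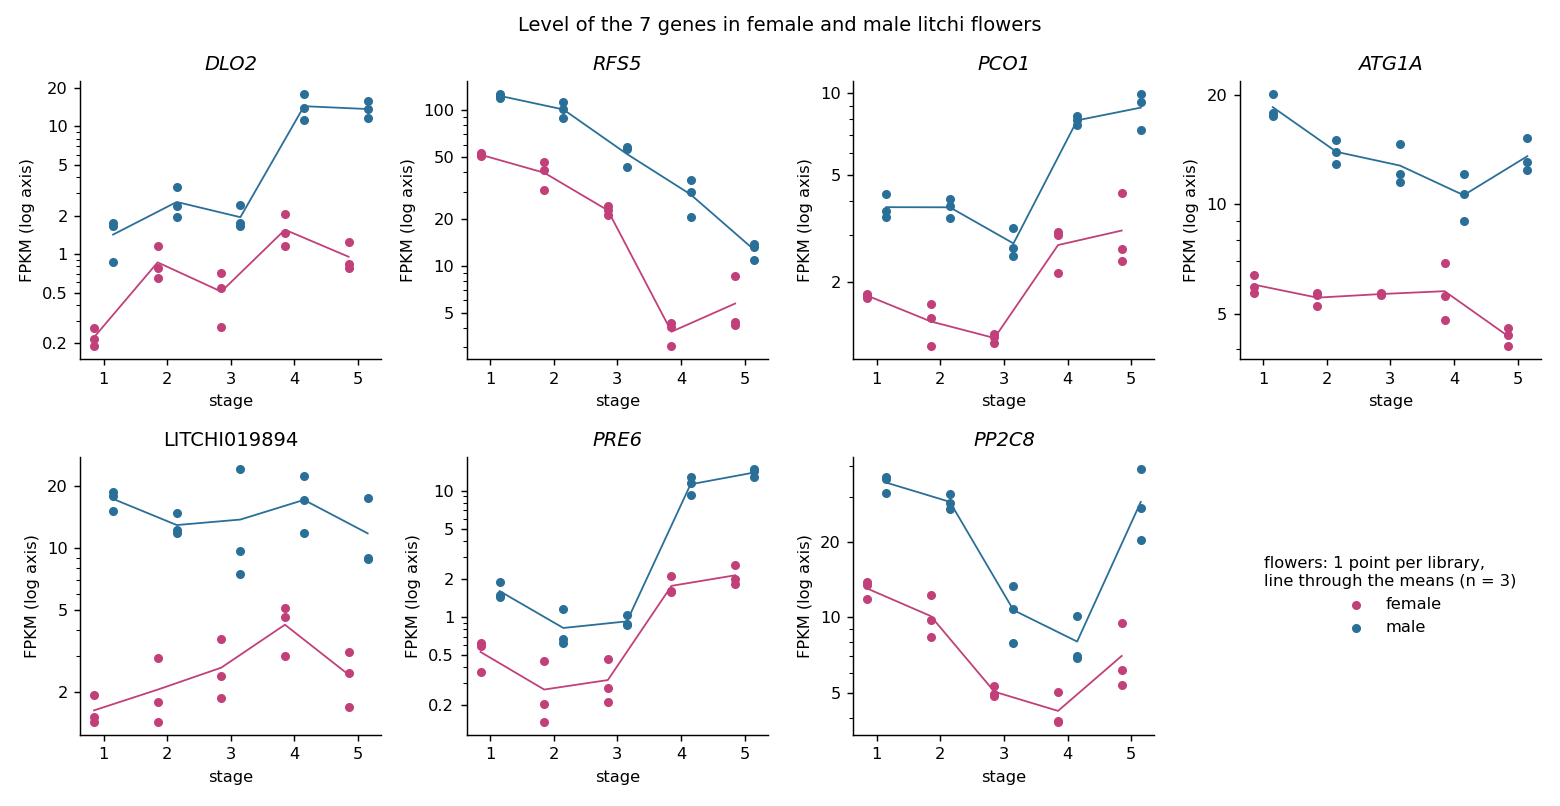
FPKM on a log axis against stage for the 7 genes, with 1 point per library, female flowers left and male flowers right at each stage, and lines through the means of 3 libraries. For ATG1A and LITCHI019894 all 15 female libraries lie below all 15 male libraries, while for DLO2, PCO1 and PRE6 both sexes are higher at stages 4 and 5 than at stage 3.

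DLO2 belongs to the 2-oxoglutarate-dependent oxygenases related to Arabidopsis DMR6 and DLO1, which hydroxylate salicylic acid and limit its action in defence. In female flowers it measured 0.262, 0.219 and 0.190 FPKM in F1, 0.782, 0.649 and 1.15 in F2, 0.711, 0.544 and 0.271 in F3, 1.15, 2.05 and 1.45 in F4, and 0.833, 0.780 and 1.25 in F5. In male flowers it measured 1.66, 0.863 and 1.74 FPKM in M1, 1.95, 3.33 and 2.395 in M2, 2.43, 1.74 and 1.66 in M3, 18.0, 13.9 and 11.2 in M4, and 11.6, 15.8 and 13.5 in M5. The M4 and M5 libraries stood above all others and overlapped each other, the F1 libraries stood below all others, and the remaining groups formed a chain in which each overlapped the next. On the log2 scale the female over male difference was -2.68 ± 0.35 (SE), -1.56 ± 0.32, -1.97 ± 0.33, -3.42 ± 0.34 and -4.32 ± 0.35 at stages 1 to 5. In unscaled FPKM the female mean at stage 5 was 6.99% of the male mean, the lowest such share among the 7 genes at any stage.

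Tested between stages, DLO2 rose in flowers of both sexes when buds opened. From stage 3 to stage 4 its log2 change was 1.55 ± 0.33 in female flowers (edgeR FDR 7.8e-04) and 2.99 ± 0.33 in male flowers (edgeR FDR 1.1e-07). Stage 5 stood above stage 1 by 1.95 ± 0.35 in female flowers (edgeR FDR 1.1e-04) and by 3.58 ± 0.34 in male flowers (edgeR FDR 3.4e-09). DLO2 was the only one of the 7 genes to rise between stages 1 and 2 in female flowers, by 1.93 ± 0.35 (edgeR FDR 6.6e-04). The F1 libraries held 13 to 14 counts of it each. With only the 2 groups compared in the fit, the rise from F1 to F2 had an FDR of 0.0464 and that from F3 to F4 an FDR of 0.0193, so neither was called there. With limma on log2(FPKM + 1) the female changes of DLO2 were 0.60 from stage 1 to 2, 0.75 from stage 3 to 4 and 0.67 from stage 1 to 5, all under 2-fold. The Swiss-Prot name DLO2 was shared by 6 other entries, of which 5 were tested. The most abundant, LITCHI001230, was called at no stage, with log2 differences of 0.04, -0.22, -0.24, 0.44 and 0.74 at stages 1 to 5, and LITCHI001699 was called at none either. LITCHI021782 and LITCHI021779 were each called lower in female flowers at 2 stages, and LITCHI010591 was called higher at 1 stage, stage 5 (3.30).

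RFS5 encodes an enzyme that moves galactose from galactinol to sucrose, which makes raffinose, a sugar that plants store in seeds and build up under cold and drought. It had the highest mean level of the 7 genes over all libraries, at 50.5, 53.2 and 51.8 FPKM in F1, 41.5, 30.8 and 46.8 in F2, 23.0, 21.1 and 24.1 in F3, 3.03, 4.25 and 4.01 in F4, and 8.58, 4.18 and 4.38 in F5. Male flowers had 119.6, 124 and 128 FPKM in M1, 102, 113 and 89.7 in M2, 43.1, 56.3 and 57.7 in M3, 35.8, 29.95 and 20.6 in M4, and 10.9, 13.3 and 13.8 in M5. Each later stage was lower in the mean except F5, which overlapped F4. Across the sexes F1 and F2 overlapped M3, and F2 and F3 overlapped M4. The female over male difference was -1.32 ± 0.24, -1.35 ± 0.24, -1.27 ± 0.24, -3.15 ± 0.26 and -1.61 ± 0.24 at stages 1 to 5.

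RFS5 was the only gene of the 7 called lower at stage 5 than at stage 1, and it was so in both sexes. Stage 5 was lower than stage 1 by a log2 change of -3.24 ± 0.25 in female flowers (edgeR FDR 1.4e-09), a 9.48-fold fall, and by -2.96 ± 0.25 in male flowers (edgeR FDR 4.4e-10), a 7.79-fold fall. In female flowers it fell between stages 3 and 4, by -2.64 ± 0.25 (edgeR FDR 3.8e-08). In male flowers no single step reached a 2-fold change in this fit, although the log2 changes were -0.95 ± 0.23 from stage 2 to 3 (edgeR FDR 0.0054), -0.76 ± 0.23 from stage 3 to 4 (edgeR FDR 0.0098) and -0.93 ± 0.24 from stage 4 to 5 (edgeR FDR 0.0033). The M2 to M3 step passed both thresholds without M2 replicate 3 (-1.03), and the M4 to M5 step did so without M4 replicate 3 (-1.12) or M5 replicate 3 (-1.01), without TMM factors (-1.18), and with limma on log2(FPKM + 1) (-1.10) and log2(FPKM + 0.1) (-1.15).

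Galactinol, the galactose donor of this reaction, is made by galactinol synthase. Of 12 entries annotated as galactinol synthase, a list drawn up after values had been seen, 10 were tested. Their median log2 difference, female over male, was -1.64, -1.12, -0.87, -2.40 and -1.18 at stages 1 to 5, while the median of all tested entries was within 0.03 of 0 at each stage. Of the 10, those called lower numbered 3, 2, 0, 6 and 5 at stages 1 to 5, beside the shares of all entries given above, and 0 were called higher. Some were near the floor, such as LITCHI004174, with a mean of 0.16 FPKM and a difference of -7.04 at stage 2. Most of the 12 entries carry consecutive identifier numbers (LITCHI004167 to LITCHI004175). Whether these share reads was not tested, so they may not count as separate genes. The other 10 tested entries of the raffinose and stachyose synthase family had medians of -0.36, -0.22, -0.20, -0.18 and -0.19 at stages 1 to 5. One entry of galactinol synthase 2 (LITCHI004173) was the fifth most alike of all genes to RFS5 in its profile, with a Pearson r of 0.971 over 30 libraries.

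PCO1 is named for enzymes that, in Arabidopsis, oxidise an N-terminal cysteine of group VII ethylene response factors and so mark these proteins for breakdown when oxygen is present. In female flowers it measured 1.79, 1.82 and 1.75 FPKM in F1, 1.67, 1.16 and 1.48 in F2, 1.29, 1.19 and 1.26 in F3, 2.17, 3.07 and 3.00 in F4, and 4.28, 2.65 and 2.39 in F5. In male flowers it measured 3.66, 4.23 and 3.48 FPKM in M1, 3.47, 3.85 and 4.05 in M2, 3.18, 2.51 and 2.67 in M3, 8.24, 7.96 and 7.60 in M4, and 7.30, 9.95 and 9.27 in M5. M4 and M5 overlapped each other and stood above the rest, and the F4 and F5 libraries reached the range of male buds. Female over male, the log2 difference was -1.15 ± 0.20, -1.40 ± 0.20, -1.22 ± 0.20, -1.74 ± 0.20 and -1.97 ± 0.20 at stages 1 to 5.

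From stage 3 to stage 4 PCO1 rose by a log2 change of 1.09 ± 0.20 in female flowers (edgeR FDR 1.7e-04) and by 1.62 ± 0.20 in male flowers (edgeR FDR 5.2e-07). Over the whole series it rose by 1.55 ± 0.20 in male flowers (edgeR FDR 3.6e-07). The change from stage 1 to 5 in female flowers was 0.73 ± 0.20 (edgeR FDR 0.0051), under 2-fold. With limma on log2(FPKM + 1) the female change from stage 3 to 4 was 0.73, also under 2-fold. A second entry with the same Swiss-Prot name, LITCHI010557, was not called lower in female flowers at any stage and was called higher there at stage 4, with a log2 difference of 1.46. PCO2 (LITCHI017884), looked up after values had been seen and more abundant at a mean of 14.4 FPKM, had female over male differences of -0.16, -0.39, -0.64, -1.03 and -2.44 at stages 1 to 5. It was 1 of 7 other plant cysteine oxidase entries, whose median differences were 0.26, -0.01, -0.17, 0.10 and 0.03. None of the 7 was called at stages 1 to 3. At stage 4, 1 was called lower and 1 higher, and at stage 5, 1 was called lower. The most abundant in FPKM, PCO4 (LITCHI020913, a mean of 21.1), was called at no stage.

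ATG1A is a member of the ATG1 kinases, which start the formation of autophagosomes, the vesicles that carry cell contents to the vacuole. Its sex differences had the smallest standard errors of the set, and it measured 5.72, 6.41 and 5.95 FPKM in F1, 5.65, 5.73 and 5.27 in F2, 5.64, 5.66 and 5.73 in F3, 4.82, 5.60 and 6.92 in F4, and 4.58, 4.39 and 4.08 in F5. Male flowers had 17.8, 20.1 and 17.5 FPKM in M1, 14.98, 12.9 and 13.9 in M2, 11.5, 14.7 and 12.1 in M3, 12.1, 10.7 and 8.99 in M4, and 13.1, 12.4 and 15.2 in M5. The highest of the 15 female libraries (6.92 FPKM) lay below the lowest of the 15 male libraries (8.99 FPKM), a separation found in 0.0862% of tested entries. The female over male difference was -1.68 ± 0.12, -1.33 ± 0.12, -1.23 ± 0.12, -1.09 ± 0.12 and -2.11 ± 0.12 at stages 1 to 5. The stage 4 value was the smallest of all 35 differences.

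No stage change of ATG1A passed both thresholds in either sex. The largest log2 changes were 0.60 ± 0.12 from stage 4 to 5 in male flowers (edgeR FDR 3.9e-04) and -0.55 ± 0.12 for stage 5 over stage 1 in female flowers (edgeR FDR 9.3e-04), both under 2-fold. The second entry annotated as ATG1a, LITCHI011901, was more abundant (a mean of 19.7 FPKM over 30 libraries) and was not called at any stage, with log2 differences of -0.13, -0.12, -0.22, -0.47 and -0.64 at stages 1 to 5. Of 40 other entries annotated as autophagy-related, 38 were tested, and their median difference was -0.04, -0.0040, 0.06, -0.32 and -0.40 at stages 1 to 5. That list was drawn up after values had been seen.

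LITCHI019894 matched only a hypothetical Citrus protein, so no function is given to it. It measured 1.52, 1.94 and 1.43 FPKM in F1, 1.43, 1.80 and 2.94 in F2, 3.63, 1.86 and 2.396 in F3, 2.99, 5.14 and 4.64 in F4, and 3.14, 1.69 and 2.47 in F5. In male flowers it measured 18.1, 15.3 and 18.9 FPKM in M1, 14.9, 11.8 and 12.2 in M2, 9.74, 7.47 and 24.2 in M3, 22.6, 17.2 and 11.8 in M4, and 17.7, 8.85 and 8.98 in M5. As for ATG1A, all 15 female libraries (at most 5.14 FPKM) lay below all 15 male libraries (at least 7.47 FPKM). Within each sex every group overlapped its neighbour in the order of means. Female over male, the log2 difference was -3.46 ± 0.43, -2.64 ± 0.41, -2.44 ± 0.41, -2.23 ± 0.40 and -2.73 ± 0.41 at stages 1 to 5, and no stage change passed the thresholds.

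PRE6, also known as KIDARI in Arabidopsis, is a short helix-loop-helix protein that does not bind DNA itself and promotes cell elongation by tying up other factors of its class. In female flowers it measured 0.627, 0.590 and 0.371 FPKM in F1, 0.205, 0.148 and 0.449 in F2, 0.464, 0.212 and 0.276 in F3, 1.59, 1.57 and 2.13 in F4, and 2.59, 2.00 and 1.82 in F5. In male flowers it measured 1.89, 1.43 and 1.49 FPKM in M1, 0.622, 1.16 and 0.672 in M2, 0.882, 0.860 and 1.03 in M3, 9.26, 11.6 and 12.8 in M4, and 12.8, 14.2 and 14.7 in M5. Open male flowers stood above all other libraries, and the F4 libraries overlapped both F5 and M1. The female over male difference was -1.66 ± 0.33, -1.61 ± 0.35, -1.57 ± 0.34, -2.87 ± 0.33 and -3.16 ± 0.34 at stages 1 to 5. PRE6 was the least counted of the 7 genes, with 6 counts in its lowest library. Its sex difference passed both thresholds in only 8, 6 and 7 of 15 alternative settings at stages 1, 2 and 3.

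PRE6 rose in flowers of both sexes when buds opened, and its step in male flowers was the largest between neighbouring stages among the 7 genes. From stage 3 to stage 4 the log2 change was 2.39 ± 0.34 in female flowers (edgeR FDR 9.9e-06), or 5.26-fold, and 3.70 ± 0.35 in male flowers (edgeR FDR 8.7e-09), or 13-fold. Stage 5 stood above stage 1 by 1.93 ± 0.33 in female flowers (edgeR FDR 7.1e-05) and by 3.43 ± 0.34 in male flowers (edgeR FDR 6.4e-09). The step from stage 1 to 2 in female flowers, at -0.94 ± 0.35 (edgeR FDR 0.0996), passed the thresholds only without F2 replicate 3, at -1.54 (edgeR FDR 0.0065). The other entry named PRE6 (LITCHI022172) was too low to be tested. PRE5 (LITCHI019559), looked up after values had been seen, had female over male differences of 0.58, 0.32, 0.60, 1.13 and 3.45 at stages 1 to 5.

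PP2C8 carries the annotation of a rice protein phosphatase 2C and the KEGG term for the phosphatases that, in Arabidopsis, hold back abscisic acid signalling. It measured 13.8, 11.8 and 13.4 FPKM in F1, 8.33, 9.72 and 12.3 in F2, 5.34, 4.89 and 4.97 in F3, 3.83, 5.05 and 3.87 in F4, and 9.498, 6.19 and 5.39 in F5. In male flowers it measured 36.2, 31.3 and 35.4 FPKM in M1, 28.5, 31.0 and 26.9 in M2, 7.94, 10.8 and 13.3 in M3, 6.90, 7.02 and 10.1 in M4, and 20.3, 38.7 and 27.2 in M5. M1, M2 and M5 stood above all female libraries, whereas M3 overlapped F1, F2 and F5, and M4 overlapped F2 and F5. Female over male, the log2 difference was -1.46 ± 0.24, -1.51 ± 0.24, -1.14 ± 0.24, -1.13 ± 0.24 and -2.50 ± 0.25 at stages 1 to 5. This difference passed both thresholds in 7 of 15 alternative settings at stage 3 and in 11 of 15 at stage 4.

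PP2C8 was the only one of the 7 genes called between stages 4 and 5, where it rose in male flowers by a log2 change of 2.09 ± 0.25 (edgeR FDR 7.1e-07). Before that it had fallen from stage 2 to stage 3, by -1.42 ± 0.24 in male flowers (edgeR FDR 1.7e-04) and by -1.05 ± 0.24 in female flowers (edgeR FDR 0.0074). The fall in female flowers was lost without F2 replicate 2 (edgeR FDR 0.0152), F2 replicate 3 (0.0269), F3 replicate 1 (0.0270), F3 replicate 2 (0.0326) or F3 replicate 3 (0.0345). The difference between stages 5 and 1 in female flowers, -0.96 ± 0.24, passed 2-fold without F1 replicate 2 (-1.02) or F5 replicate 1 (-1.26). The second entry of this Swiss-Prot name, LITCHI021945, had female over male differences of -1.01, -1.42, -1.02, -1.497 and -0.83 at stages 1 to 5 and was called lower at stages 2 and 4. It is 1 of 14 other entries listed as clade A phosphatases 2C, of which 12 were tested. Their median difference was -0.34, -0.39, -0.14, -0.37 and -0.94 at stages 1 to 5. Those called lower numbered 0, 1, 0, 1 and 6, beside the shares of all entries given above, and 0 were called higher.

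**Figure D2:**
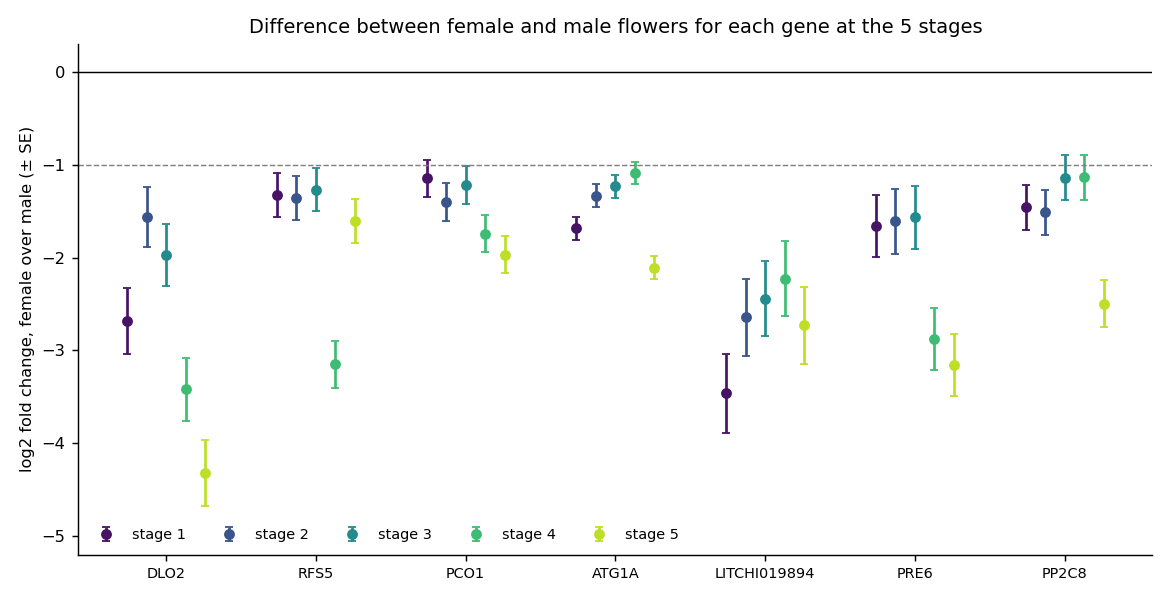
Log2 fold change of female over male flowers for each gene at stages 1 to 5, with approximate standard errors from the edgeR fit over 30 libraries, and a dashed line at a 2-fold lower level. The values run from -4.32 for DLO2 at stage 5 to -1.09 for ATG1A at stage 4.

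Over both sexes and 5 stage contrasts each, 18 of the 70 tests on these genes were called, 13 of them higher and 5 lower at the later stage. Of the 18, 7 fell between stages 3 and 4, when buds opened. Between stages 3 and 4, 4 of 7 genes were called in female flowers (DLO2, PCO1 and PRE6 rose and RFS5 fell), where 12.1% of all tested entries were called (4.56% higher and 7.51% lower), and 3 of 7 in male flowers (DLO2, PCO1 and PRE6 rose), where 20.4% were called (7.73% higher). Between stages 5 and 1, 3 of 7 were called in female flowers (DLO2 and PRE6 higher, RFS5 lower) against 14.8% of all entries (7.44% higher and 7.31% lower), and 4 of 7 in male flowers (DLO2, PCO1 and PRE6 higher, RFS5 lower) against 36.8% (15.3% higher and 21.5% lower).

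The other steps held few calls. In female flowers 1 of 7 genes was called between stages 1 and 2 (background 3%, with 2.33% higher) and 1 of 7 between stages 2 and 3 (background 2.51%, with 0.977% lower), and in male flowers 1 of 7 between stages 2 and 3 (background 6.23%, with 2.47% lower) and 1 of 7 between stages 4 and 5 (background 10.6%, with 3.63% higher). None of the 7 was called by edgeR between stages 4 and 5 in female flowers (background 1.22%), where 4 had an unadjusted p under 0.05 and DESeq2 called 0. None was called by edgeR between stages 1 and 2 in male flowers (background 2.66%), where 3 had an unadjusted p under 0.05 and DESeq2 called 1, PRE6, with a log2 change of -1.01 (DESeq2 FDR 0.0072). Whether a stage change differed between the sexes was not tested, because that difference is built from the contrasts that chose the genes.

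**Figure D3:**
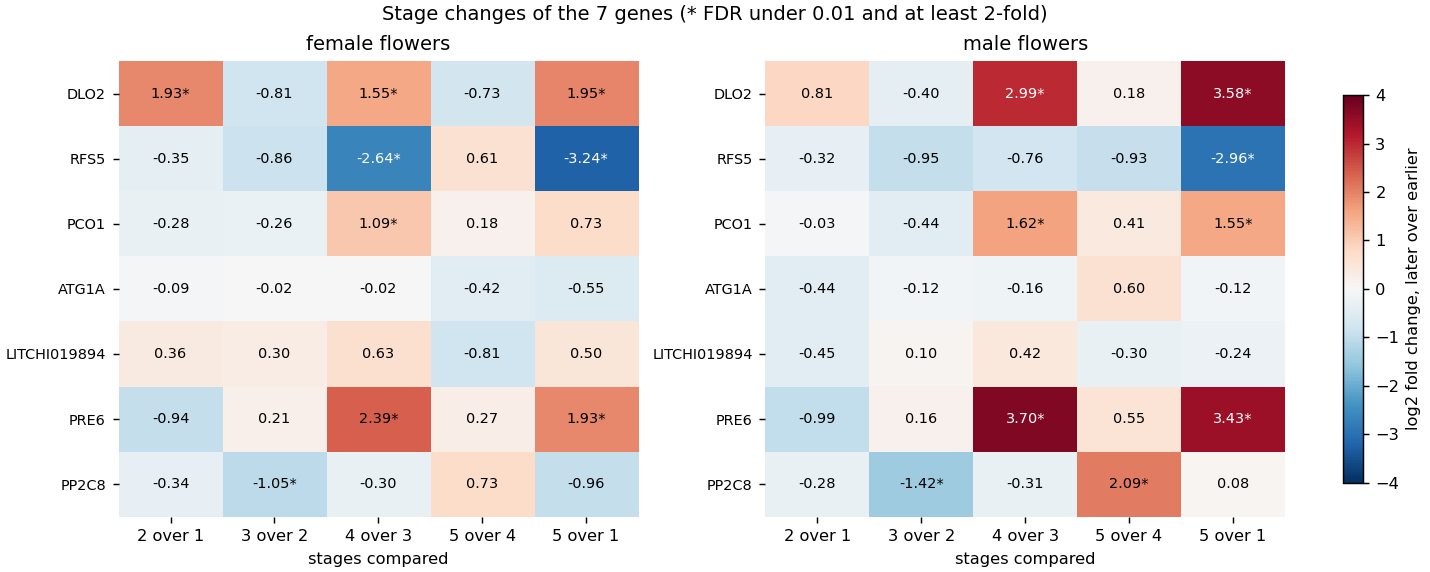
Log2 fold change of the later over the earlier stage for the 7 genes in female (left) and male (right) flowers, with a star where edgeR called the change. The stage 4 over stage 3 column holds 4 stars in female and 3 in male flowers, and the rows of ATG1A and LITCHI019894 hold none.

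Pollen markers also differed between stages and sexes once buds opened. They comprised 12 entries of which 1 had no count in any library, and summed to 65.8 to 98.6 FPKM in F4 and 79.2 to 156 FPKM in F5 libraries, against 297 to 372 FPKM in M4 and 324 to 499 FPKM in M5 libraries. In the buds their sums overlapped between the sexes, at 28.6 to 30.4 FPKM in F1 against 29.7 to 54.9 in M1, 14.6 to 18.4 in F2 against 14.9 to 16.03 in M2, and 21.1 to 26.2 in F3 against 22.5 to 29.0 in M3. Between stages 3 and 4, 5 of the 11 tested pollen markers were called higher in female flowers and 10 of 11 in male flowers, in the same step as DLO2, PCO1 and PRE6, and the part of pollen in those rises and in the sex differences was not tested.

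Carpel and ovule markers (9 entries, all tested) went both ways in open flowers, with 3 called higher and 1 lower in F4 than in M4, and 5 higher and 3 lower in F5 than in M5. The share of all entries called higher in female flowers at a single stage is not given here. Their median log2 difference, female over male, was 0.57 at stage 4 and 1.501 at stage 5, and the ovule identity gene AGL11 (LITCHI011705) was at 4.11 and 4.56. Their summed level was nevertheless lower in female flowers, at 457 to 491 FPKM in F4 against 688 to 795 in M4 and 260 to 379 FPKM in F5 against 475 to 520 in M5, since it is carried by CRABS CLAW (LITCHI005346, a mean of 262 FPKM), which differed by -1.07 and -1.55. Of the 3 stamen identity genes, 2 were called lower in female flowers at stages 4 and 5, while LITCHI010203, a DEFICIENS entry, was called higher (2.94 and 4.04). The lower pair is the more abundant and carries their sum, which came to 290 to 325 FPKM in F4 against 612 to 839 in M4, and to 176 to 250 FPKM in F5 against 381 to 409 in M5. Tapetum markers (18 entries) peaked in buds, at 750 to 1834 FPKM in F2 against 1032 to 1240 in M2, and reached 685 to 1013 FPKM in F3 against 313 to 437 in M3. Their part in the sex differences was not tested. The actin gene used as a reference, LITCHI007623, was not called at any stage, with female over male differences of 0.07, 0.02, -0.11, -0.38 and -0.49.

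Some of the 7 genes were alike in their profiles. Over all 30 libraries, log2 CPM (counts scaled to a common library total) of PCO1 and PRE6 had a Pearson r of 0.932, DLO2 and PCO1 of 0.902, and DLO2 and PRE6 of 0.863. Male and female libraries form separate clusters for several genes, so r was also taken within the 15 libraries of each sex. PCO1 and PRE6 then had r of 0.890 in female and 0.954 in male flowers, DLO2 and PCO1 0.434 and 0.926, and DLO2 and PRE6 0.493 and 0.921. RFS5 ran opposite to DLO2, PCO1 and PRE6 within each sex. Its r was -0.691, -0.617 and -0.792 in female and -0.859, -0.783 and -0.833 in male flowers. Other pairs were alike mainly in 1 sex. RFS5 and PP2C8 had r of 0.784 in female and 0.218 in male flowers. For DLO2 and LITCHI019894 it was 0.679 and 0.124, and for ATG1A and PP2C8 0.290 and 0.752. ATG1A and LITCHI019894 were alike over all libraries, with r of 0.883, but not within a sex, with r of 0.011 in female and 0.055 in male flowers. All these values share libraries and are descriptions.

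Of all tested genes outside its own locus, the 2 most alike to each member in log2 CPM over the 30 libraries were as follows. For DLO2 they were LITCHI010373, which has no Swiss-Prot match (r = 0.939), and methionine gamma-lyase, LITCHI021841 (r = 0.935). RFS5 was most alike to LITCHI027622, without a match (r = 0.974), and cell number regulator 8, LITCHI018560 (r = 0.973). For PCO1 the closest were the plastid sigma factor sigE, LITCHI009515 (r = 0.956), and the mitochondrial calcium uniporter protein 2, LITCHI006699 (r = 0.955). None of these 6 genes was called lower in female flowers at all 5 stages.

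PRE6 was most alike to ABC transporter B family member 9, LITCHI028907 (r = 0.967), and LITCHI015205, without a match (r = 0.965). The closest to PP2C8 were the auxin-induced protein 22D, LITCHI014933 (r = 0.943), and the probable carboxylesterase 18, LITCHI011967 (r = 0.934). ATG1A came closest to LHY, LITCHI026770.m2 (r = 0.963), followed by the kinase SAPK3, LITCHI022672 (r = 0.902), and LITCHI019894 came closest to LNK3, LITCHI019895 (r = 0.956), followed by LHY (r = 0.910).

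LHY and LNK3 were therefore at once the most alike of 27853 genes and the entries with the next identifier number. That rank is over all 30 libraries, so it includes the sex difference that chose the members, and no rank within a sex was taken. LHY averaged 6.36 ± 0.64 FPKM in F1 (SD, n = 3) against 68.3 ± 6.01 FPKM in M1 libraries, and 5.27 ± 2.87 FPKM in F5 against 64.6 ± 6.32 FPKM in M5. Its female over male difference was -3.49, -3.43, -3.53, -2.48 and -4.08 at stages 1 to 5. LNK3 averaged 2.65 ± 0.27 FPKM in F1 against 46.4 ± 5.21 FPKM in M1, and 4.20 ± 0.94 FPKM in F5 against 22.7 ± 3.69 FPKM in M5. Its difference was -4.19, -3.57, -2.25, -2.35 and -2.90 at stages 1 to 5. LHY stood further apart between the sexes than ATG1A at every stage, and LNK3 further apart than LITCHI019894 at every stage except stage 3 (-2.25 against -2.44 for LITCHI019894).

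**Figure D4:**
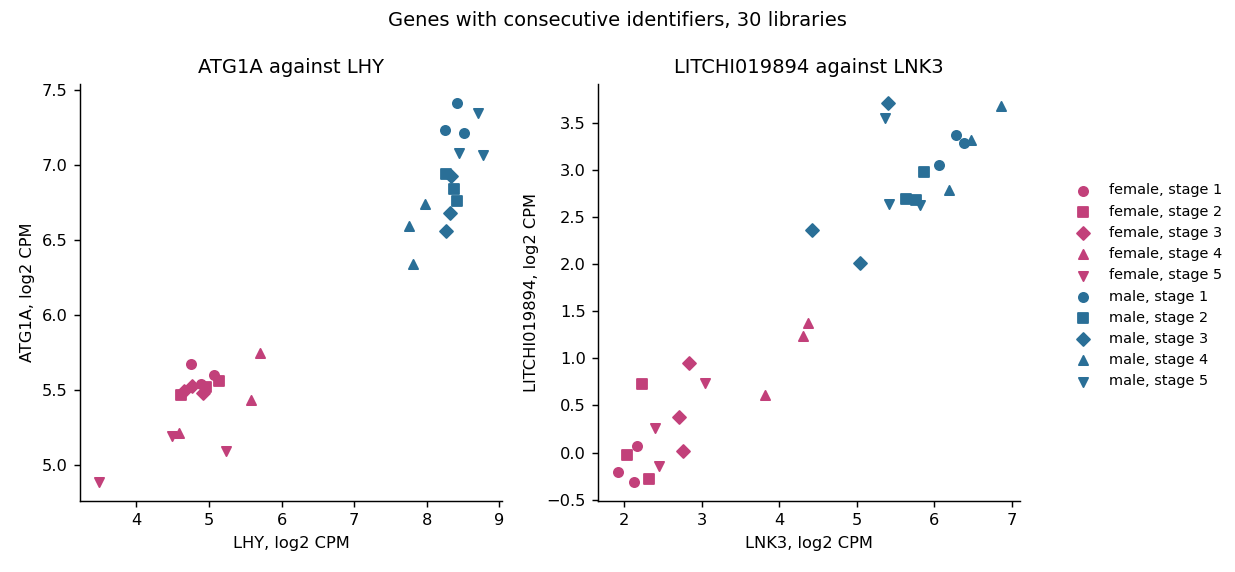
Log2 CPM of ATG1A against LHY (left) and of LITCHI019894 against LNK3 (right), with 1 point per library, female flowers in pink and male flowers in blue, and the marker shape giving the stage. Female and male libraries form separate clusters in both panels, and within a sex r was 0.818 for the female and 0.579 for the male libraries of the right panel.

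Over the 15 libraries of a sex each of these 2 members had a higher r with its own neighbour than with that of the other. ATG1A and LHY had r of 0.631 in female (Spearman rho 0.450) and 0.703 in male flowers (rho 0.654), against 0.002 and 0.070 for ATG1A and LNK3. LITCHI019894 and LNK3 had r of 0.818 in female (rho 0.779) and 0.579 in male flowers (rho 0.482), against 0.161 and -0.265 for LITCHI019894 and LHY. With the group means removed, ATG1A was about as alike to LNK3 (r = 0.479) as to LHY (r = 0.491), whereas LITCHI019894 had r of 0.536 with LNK3 and -0.117 with LHY. Without the 2 libraries farthest from the median of the clock gene, the 4 values of the neighbours became 0.065, 0.511, 0.605 and 0.372. The relation of ATG1A to LHY in female flowers therefore rested on F4 replicate 3 and F5 replicate 3. Genome positions were not used here and no source used here gives the strand of the counted reads, so whether a neighbour shares reads with a member was not tested.

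The members had 18 entries with an identifier number 1 lower or 1 higher, all of them tested. Besides LHY and LNK3, which were called lower at all 5 stages, 15 of the 18 were called in neither direction at stages 1 to 3. At those stages at most 0.923% of all tested entries were called lower, so few calls would be seen in most sets of entries. Over all stages 10 of the 18, LHY and LNK3 among them, were called lower at 1 or more. LITCHI009627 was called higher at 2 stages and LITCHI021774 at 1. A second LHY entry (LITCHI026770.m1), with a mean of 2.01 FPKM, had differences of -2.47, -5.21, -4.41, -3.07 and -2.42 and was called at stage 2 only. ATG1A's other neighbour, the receptor-like kinase LITCHI026768, had a difference of -0.28 at stage 1 and -1.57 at stage 5. LITCHI019894's other neighbour, LITCHI019893, had differences between -0.26 and 0.30 and was called at no stage.

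**Figure D5:**
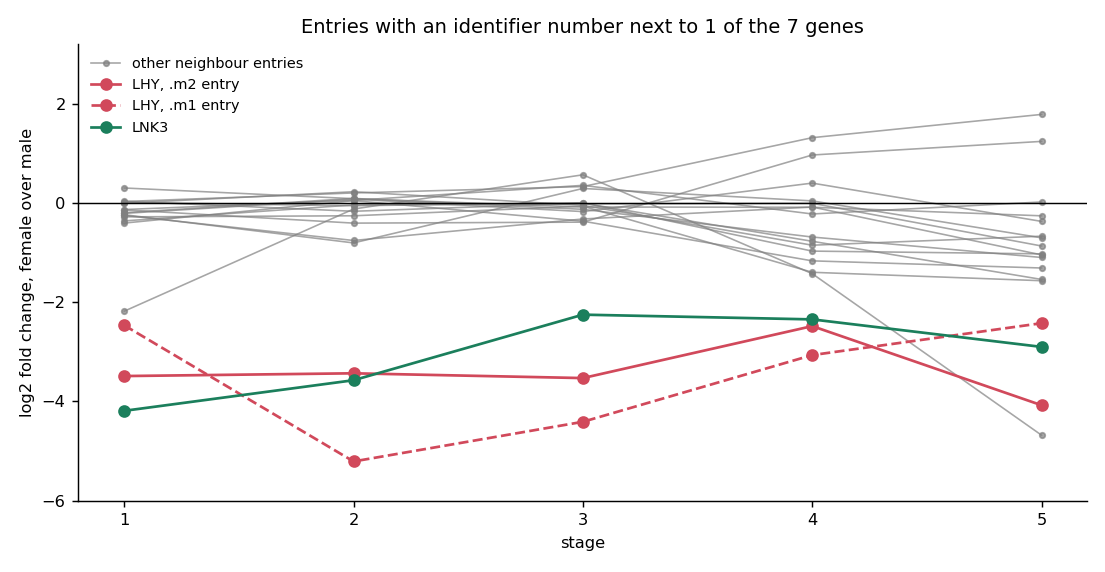
Log2 fold change of female over male flowers against stage for the 18 entries whose identifier number is next to that of 1 of the 7 genes. The 2 LHY entries and LNK3 lie below -2 at every stage, and the other 15 entries were not called at stages 1 to 3. Of all 18 entries, 10 were called lower at 1 or more stages.

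The clock list held 32 entries, of which 28 were tested. Those called lower in female flowers numbered 8, 10, 5, 5 and 8 at stages 1 to 5, beside the shares of all entries given above, and 1 was called higher, at stage 2. Of the entries with the highest mean CPM, LHY (LITCHI026770.m2) was called lower at all 5 stages. GIGANTEA (LITCHI011520.m1), PRR37 (LITCHI024781.m1) and APRR7 (LITCHI018527) were called at no stage. Among the less abundant entries, LNK3 and cyclic dof factor 3 (LITCHI023451) were called lower at all 5 stages. LNK1 (LITCHI001190) and an APRR5 entry (LITCHI026785) were called lower at 4. At stages 1 to 5 the difference was 0.05, -0.03, -0.18, -0.27 and -0.94 for GIGANTEA, -0.21, -0.85, -0.98, -0.24 and -0.92 for PRR37, and -0.55, -0.55, -0.68, 0.05 and -0.53 for APRR7. The median of the list was -0.56, -0.52, -0.27, -0.55 and -0.93 at stages 1 to 5. Its summed level was 492 to 511 FPKM in F1 against 737 to 745 FPKM in M1 libraries, and 520 to 580 FPKM in F5 against 816 to 906 FPKM in M5. The parts of the time of day and of the collection date in these differences were not tested.

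Of the 18 entries called lower at all 5 stages, the 11 that are not described above as members are LHY, LNK3, cyclic dof factor 3, CONSTANS-LIKE 5, a seed maturation protein, 2 entries of the ultraviolet-B receptor UVR8, alpha-farnesene synthase, a small subunit of geranylgeranyl pyrophosphate synthase, a DSC1-like resistance protein and an entry that the authors added as new. Just inside the thresholds among the 7 genes were PRE6 at stage 2, with an edgeR FDR of 0.0096, and ATG1A at stage 4, with a log2 difference of -1.09. Just outside were proline dehydrogenase 2 (LITCHI019295), at -0.9996 at stage 3, and an RNA helicase (LITCHI021742), at -0.99 at stage 1, each called lower at the other 4 stages.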

How the data were processed

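RNA-seq libraries of whole litchi flowers (10 groups, n = 3) were analysed from 1 table. The study's methods name Trimmomatic for trimming, a step that removed ribosomal reads, and Cufflinks for expression, while the submitters' processing notes name HISAT2 2.0.4 and StringTie. No positions are stated, because the build of the genome is not given in the sources used here. The authors deposited raw counts per entry and library, and FPKM values that they scaled by transcript length and mapped fragments. The table also holds 75 columns of the authors' comparisons (FDR, log2 fold change and direction), which were not used, and 0 per-library columns were left out. The labels put each library in its group.

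For the main test the counts went into edgeR 4.0.16 (R 4.3.3), with filterByExpr on 10 groups (27854 entries kept, 9380 removed), TMM scaling (factors 0.774 to 1.16) and the quasi-likelihood test over all 30 libraries. A change was called at a Benjamini-Hochberg FDR under 0.01, adjusted over all tested entries, and at least 2-fold. Standard errors (SE) were taken as log2 fold change over the root of the F statistic. Counting error matters most for DLO2, PRE6 and LITCHI019894 in female buds. Counts were also low for PRE6 in male buds (26 to 47 in M2) and for LITCHI019894 in F5 (36 to 74). No replicate pair was identical or within sampling noise (smallest chi-square per degree of freedom 20.5). Profiles were compared by Pearson r of log2 CPM (prior count 2). Named are the 7 genes, entries with neighbouring identifiers, the 2 most alike genes, family entries and the other entries lower at all 5 stages. Also named are the most abundant clock entries and those called lower at 4 stages.

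The members, lists and tests were chosen with earlier results of these data known. Alternatives were library sizes without TMM, no or a stricter filter (1 CPM in 3 libraries), DESeq2 1.42.0, limma 3.58.1 on log2(FPKM + 1) and log2(FPKM + 0.1), only the groups compared, entries of a locus summed, a replicate block and each replicate left out. The fits were tested on simulated data.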

Additional observations from a re-analysis of the deposited data

Results flagged for a closer look

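The log2 change of ATG1A between half-open flowers and full bloom was below 0 in female and above 0 in male flowers. In female flowers all 3 stage 5 libraries (4.58, 4.39 and 4.08 FPKM) lay below all 3 stage 4 libraries (4.82, 5.60 and 6.92 FPKM). The log2 change was -0.42 (edgeR FDR 0.042), and the FDR reached 0.27 with a replicate left out. In male flowers all 3 stage 5 libraries (13.1, 12.4 and 15.2 FPKM) lay above all 3 stage 4 libraries (12.1, 10.7 and 8.99 FPKM). The log2 change there was 0.60 (edgeR FDR 3.9e-04). Both changes were under 2-fold, neither was called, and the difference between them was not tested. How many of all entries separate in this way between these stages was not counted.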

How the results depend on the processing

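All 525 re-estimates of the female over male difference were below 0, which the choice of the genes largely fixed, and how many genes passed both thresholds depended on the setting. With limma on log2(FPKM + 1), 4 of 7 passed at stage 1, 4 at stage 2 and 3 at stage 3, and with only the groups compared in the fit 0 passed at stage 2 and 3 at stage 3. With each replicate left out in turn, 4 to 7 passed at stage 2 (4 without F2 replicate 2 or M2 replicate 2) and 3 to 6 at stage 3 (3 without F3 replicate 2, and 4 without F3 replicate 3, M3 replicate 2 or M3 replicate 3). At stage 1, 6 to 7 passed, and PRE6 was lost when any F1 replicate, M1 replicate 1 or M1 replicate 3 was left out. Of 15 alternatives for each stage, PRE6 passed in 8, 6 and 7 at stages 1, 2 and 3. DLO2 passed in 8 of 15 at stage 2, and PP2C8 in 7 of 15 at stage 3. At stage 4, 5 passed without TMM factors and with limma at either pseudocount, where ATG1A and PP2C8 were under 2-fold, and 6 without F4 replicate 1 (ATG1A lost) or M4 replicate 3 (PP2C8 lost).

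Of 1050 re-estimates of stage changes, 994 kept direction and side of the threshold, 16 no longer passed, 10 newly passed and 30 changed sign, none of these a called change. The number of genes called between F1 and F2 was 1 in the fit reported and 0 with only the groups compared or with limma on log2(FPKM + 1), and 1 to 2 with a replicate left out (2 without F2 replicate 3). Between F2 and F3 it was 0 without TMM factors, with only the groups compared, with limma at either pseudocount and with the replicate block, and 0 to 1 with a replicate left out (0 without F2 replicate 2 or 3, or any F3 replicate). Between F3 and F4 limma on log2(FPKM + 1) called 2 genes, and between M1 and M2 DESeq2 called 1. Between M2 and M3 the leave-one-out range was 1 to 2 (2 without M2 replicate 3). Between M4 and M5 it was 1 to 2 (2 without M4 replicate 3 or M5 replicate 3), with 2 called without TMM factors and with limma at either pseudocount.

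The changes of sign all concerned small log2 changes. For ATG1A from F2 to F3 (-0.02) the value was 0.0331 without TMM factors, 0.0286 and 0.0332 with limma at pseudocounts of 1 and 0.1, and -0.0379 to 0.0085 with a replicate left out. For ATG1A from F3 to F4 (-0.02) it was 0.026 without TMM factors, 0.0136 with only the groups compared, 0.0105 and 0.01 with limma, and -0.175 to 0.1075 with a replicate left out. For PCO1 from M1 to M2 it was 3e-04 with limma at a pseudocount of 0.1, and -0.0738 to 0.0703 with a replicate left out. For LITCHI019894 from M2 to M3 it was -0.0779 and -0.0946 with limma, and -0.5971 to 0.4001 with a replicate left out. For DLO2 from M4 to M5 it was -0.0679 without TMM factors and -0.0551 and -0.0578 with limma. For PP2C8 from M1 to M5 it was -0.2668 without TMM factors, -0.2915 and -0.3015 with limma, and -0.1851 to 0.3513 with a replicate left out. With a replicate left out, LITCHI019894 spanned -0.0074 to 0.5657 from F1 to F2 and -0.0013 to 0.6782 from F2 to F3, PRE6 spanned -0.1935 to 0.8099 from F2 to F3 and -0.006 to 0.5328 from M2 to M3, and PCO1 spanned -0.1606 to 0.3661 from F4 to F5. The cause of these changes was not tested.

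Replicate numbers did not pair the libraries: in 0 of 15 contrasts were all same-numbered pairs correlated over 0.1, and 9 of 30 libraries correlated best with their own number. With the replicate block the PP2C8 change from F2 to F3 was -1.04 (edgeR FDR 0.0115). Under the block DLO2 and PRE6 at stage 2 and PRE6 and PP2C8 at stage 3 were no longer past the thresholds between the sexes. Leaving out TMM factors moved the median of all entries by 0.21 for F4 over M4, 0.47 for F5 over M5, -0.11 for M4 over M3, -0.24 for M5 over M4 and -0.34 for M5 over M1. Depth limits DLO2, PRE6 and LITCHI019894 most, with 13, 6 and 25 counts in their lowest libraries.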
